A study of Mus musculus with 24 samples.

Results

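The lymphoid priming genes examined here are 9 genes that act in the first steps from multipotent progenitor to lymphocyte: Ikzf1, Tcf3, Ebf1, Dntt, Satb1, Notch1, Il7r, Bcl11a and Foxo1. Their chromatin was read from a table of ATAC-seq counts, in which Tn5 transposase cuts open chromatin and the reads in each accessible region are counted. A region belonged to a gene when it overlapped the gene body, or when the gene end nearest to it among protein-coding genes was that gene's and lay within 50 kb. By this rule 17 of 13910 regions belonged to 7 of the 9 genes, with 5 each for Ikzf1 and Bcl11a, 2 each for Satb1 and Notch1, and 1 each for Tcf3, Dntt and Foxo1. Ebf1 and Il7r had no region. Each region is named below by its gene and by the distance in kb of its centre from the nearest annotated start site, negative when upstream.

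Bone marrow of WT CD45.1 donor mice was transplanted into young CD45.2 recipients that were either WT or IκB–, and after 13 to 15 weeks the donor cells were sorted from the marrow of femur and tibia, 500 to 1500 cells per sample. The 8 groups are the 2 recipient types, WT and IκB–, each with 4 donor subsets: long-term stem cells (HSC) and the multipotent progenitors MPP2, MPP3 and MPP4, with 3 libraries a group. All sorted cells were donor (CD45.1+), lineage-negative, Sca1+ and high in cKit. HSC, MPP2 and MPP3 were Flt3– and were divided by CD150 and CD48, and MPP4 were Flt3+. The gate for HSC is written in the protocol as CD150– CD48–, and the group is kept here under its label. The labels give neither the genetic change of the IκB– recipients (IκB proteins bind and restrain NF-κB in the cytoplasm) nor the number of mice behind the libraries, so the p-values measure only the spread between libraries. Because each library pools many sorted cells, more cells with an open region and a more open region per cell cannot be told apart.

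Lymphoid priming is the early accessibility and low expression of lymphoid genes in progenitors that can still form other blood cells, and it is best known from the Flt3+ progenitors that MPP4 represents. Ikzf1 (Ikaros), Tcf3 (the E protein E2A), Ebf1, Bcl11a and Foxo1 encode transcription factors that B lymphopoiesis needs, and Satb1 encodes a chromatin organizer of early lymphoid cells. Notch1 and Il7r encode receptors, for the signal that directs T lineage entry and for interleukin 7, and Dntt encodes the terminal transferase that adds nucleotides to rearranging antigen receptor genes.

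At the start sites, the genes divided into those with a region over the promoter and those without one. The 250 bases before a start are printed for 3 promoters overlapped by a region (Ikzf1, Tcf3 and Foxo1) and for 3 without one (Ebf1, Dntt and Il7r), because their CpG content differs widely. They are RefSeq sequences of GRCm38.p6, each written 5′ to 3′ on the strand of its gene in lower case, with every CG dinucleotide in capitals.
Ikzf1, chr11:11685675-11685924, + strand: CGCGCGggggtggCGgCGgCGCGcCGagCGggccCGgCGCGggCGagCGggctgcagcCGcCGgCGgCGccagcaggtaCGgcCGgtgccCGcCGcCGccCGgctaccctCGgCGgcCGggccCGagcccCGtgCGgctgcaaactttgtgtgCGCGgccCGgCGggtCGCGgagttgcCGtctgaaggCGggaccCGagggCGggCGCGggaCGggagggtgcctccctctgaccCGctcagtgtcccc
Tcf3, chr10:80433636-80433885, - strand: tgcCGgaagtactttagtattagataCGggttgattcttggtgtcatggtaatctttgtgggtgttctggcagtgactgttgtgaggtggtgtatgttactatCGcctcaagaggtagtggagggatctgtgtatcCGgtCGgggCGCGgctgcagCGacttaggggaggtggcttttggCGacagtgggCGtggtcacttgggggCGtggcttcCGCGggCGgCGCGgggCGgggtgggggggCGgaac
Foxo1, chr3:52268087-52268336, + strand: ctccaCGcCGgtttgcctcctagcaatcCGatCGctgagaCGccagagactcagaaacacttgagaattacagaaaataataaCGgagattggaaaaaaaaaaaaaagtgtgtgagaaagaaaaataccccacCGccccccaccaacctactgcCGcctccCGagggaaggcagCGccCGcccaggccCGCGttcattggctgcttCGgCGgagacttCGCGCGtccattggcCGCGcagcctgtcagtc
Ebf1, chr11:44617850-44618099, + strand: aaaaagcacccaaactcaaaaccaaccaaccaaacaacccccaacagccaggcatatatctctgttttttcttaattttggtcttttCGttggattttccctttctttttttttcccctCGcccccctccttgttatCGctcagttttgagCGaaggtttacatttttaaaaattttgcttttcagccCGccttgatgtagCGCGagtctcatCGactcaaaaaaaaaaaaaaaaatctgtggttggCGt
Dntt, chr19:41029025-41029274, + strand: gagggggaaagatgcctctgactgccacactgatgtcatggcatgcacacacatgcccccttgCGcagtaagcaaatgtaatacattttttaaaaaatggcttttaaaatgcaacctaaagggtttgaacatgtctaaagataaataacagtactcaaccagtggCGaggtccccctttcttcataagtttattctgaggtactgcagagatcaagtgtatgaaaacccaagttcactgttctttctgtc
Il7r, chr15:9529877-9530126, - strand: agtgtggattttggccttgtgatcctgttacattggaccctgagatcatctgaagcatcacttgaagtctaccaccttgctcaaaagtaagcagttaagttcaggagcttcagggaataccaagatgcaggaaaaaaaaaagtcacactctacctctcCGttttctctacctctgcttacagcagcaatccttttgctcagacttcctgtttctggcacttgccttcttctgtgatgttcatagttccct

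The overlapped promoters held 44 CG dinucleotides in Ikzf1, 18 in Tcf3 and 20 in Foxo1, whereas Ebf1 held 9 in the window shown, Dntt 2 and Il7r 1. Among all 21044 promoter windows of that table, a region overlapped 68.3% of those with 20 or more CG, 57.5% of those with 10 to 19, 22.2% of those with 5 to 9 and 3.31% of those with up to 4. A high CG content did not always go with a region. The windows of Notch1 and Bcl11a held 16 CG each, the other Ebf1 window held 14, and Satb1 windows held 41 and 12. None of these was overlapped, nor was the other Ikzf1 window, which held 1 CG. Motif letters were searched on both strands. The RUNX letters TGTGGT occurred once in the Ebf1 window shown (12.2% of all windows), while the Ikaros core TGGGAA (21.1%) occurred once in the Bcl11a window, in the other Ebf1 window and in 1 Satb1 window. The E2A letters CAGGTG (17.1%) occurred once, in another Satb1 window, and no member window held the FOXO letters TGTTTAC (2.64%). No window held more than 1 of these motifs, so none overlapped another.

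Libraries held 121599 to 963699 counts. Every MPP3 library (292114 to 963699 counts) was deeper than every HSC library (121599 to 255584). The part of depth in differences between these subsets was not tested. A chi-square comparison of the counts of WT MPP3 replicates 2 and 3 found no difference beyond sampling noise at 13126 regions (p 0.348, with 1.005 per degree of freedom), and the pair was counted as 1 sample, which leaves 23 replicates and n = 2 in that group. Values are counts scaled to 1000000 per library (CPM) on TMM library sizes, and a member region held 1 to 80 counts per replicate, so counting error alone is large. Of the counts outside mitochondrial DNA, the part lying 1 kb or less from a gene end was lowest in WT MPP4 replicate 1 (61.1%). It was highest in IκB– HSC replicate 3 (73.8%) and ran from 62.6% to 71.7% in the other libraries. Flt3, the receptor of the MPP4 gate, had 3 regions, of which 1 was called higher in MPP4. At the long-term HSC genes listed, the estimates for HSC were below those of the other subsets in 8 of 10 tested regions and above in 2. The joint test of any difference between subsets called 1 of these 10, at Slamf1, which encodes CD150, 4 of 12 regions of the MPP2, megakaryocyte and erythroid genes, 1 of 5 of the MPP3 and myeloid genes and 2 of 8 of the MPP4 genes (7.20% of all regions). The Slamf1 region (0 to 14 counts per replicate) had 18.7 to 54.3 CPM in WT HSC, 8.81 to 13.6 CPM in IκB– HSC and 0 to 9.09 CPM in MPP3. Against the other subsets its estimates were 1.33 for HSC, 1.07 for MPP2, -0.21 for MPP4 and -2.19 for MPP3, with a joint adjusted p of 0.0174 (0.0674 without WT MPP3 replicate 1) and a recipient effect of -1.95 (adjusted p 0.0157, edgeR). No region belonged to the 4 mature B or the 6 mature T and NK cell markers listed, to the granulocyte genes Ly6g and S100a8, or to 4 of 5 stromal and endothelial genes. The summed level of the 2 mature myeloid genes with a region was 28.3 to 75.7 CPM in MPP4 and 16.9 to 88.2 CPM in the other subsets.

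MPP4 was compared first with the mean of HSC, MPP2 and MPP3, averaged over both recipient types. A region 119.8 kb from the Bcl11a start, beyond the gene's end, was 2.21-fold higher in MPP4, and it was the 1 member region called among 16 tested. A region inside Ikzf1 at +73.2 kb and both Notch1 regions had the next-largest estimates (0.64 to 0.82 on the log2 scale) and missed the threshold. The regions at the start sites of Ikzf1, Tcf3, Satb1, Bcl11a and Foxo1 did not pass the test. Called means an adjusted p under 0.05 in edgeR's quasi-likelihood test with Benjamini-Hochberg adjustment over all 13325 regions tested, of which 0.750% were called in this comparison (87 higher and 13 lower in MPP4). The members' estimates were higher in MPP4 for 11 regions and lower for 5, with a median of 0.16, against a median of -0.000309 over all regions.

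**Figure D1:**
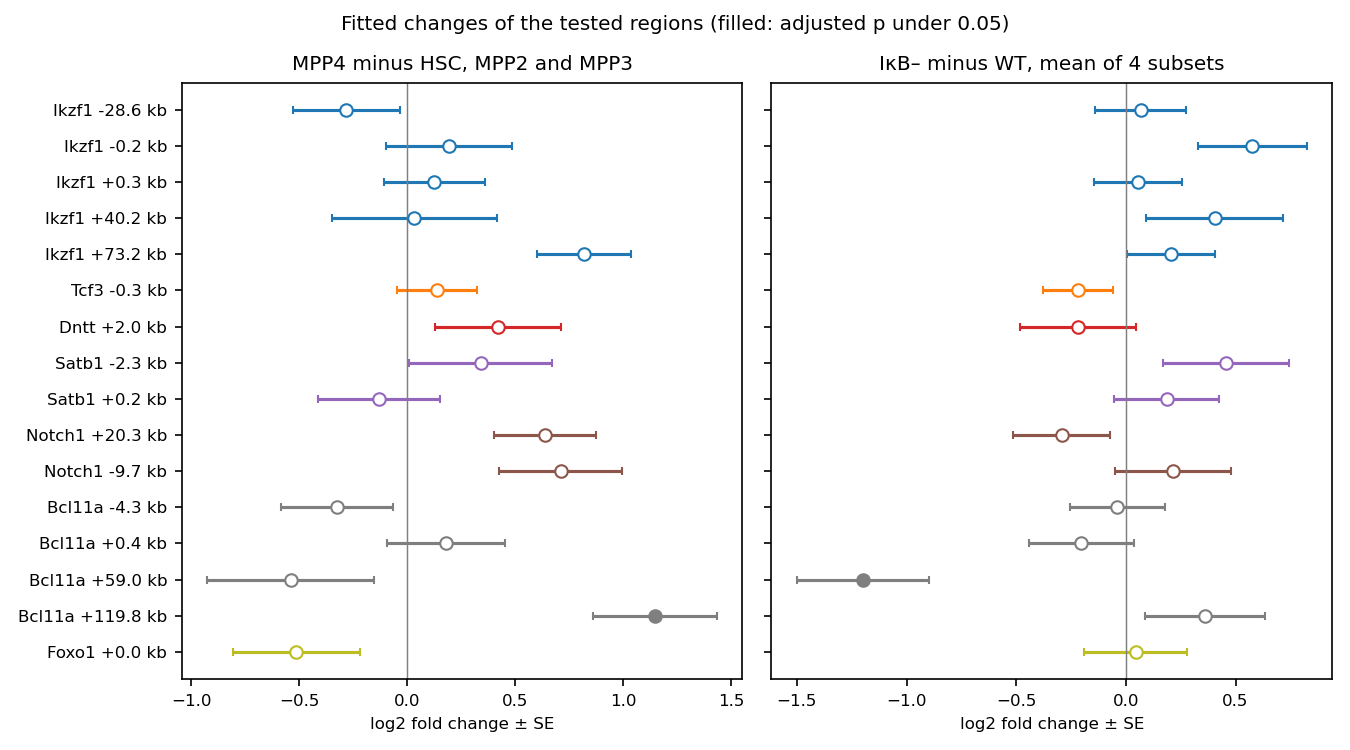
Fitted log2 fold changes with their SE (horizontal bars) for the 16 tested member regions, for MPP4 minus the other subsets on the left and for IκB– minus WT recipients, averaged over 4 subsets, on the right; filled points passed an adjusted p of 0.05. The filled points are Bcl11a +119.8 kb on the left (1.15 ± 0.29) and Bcl11a +59.0 kb on the right (-1.20 ± 0.30).

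Ikzf1, a zinc finger factor that opens and silences lymphoid genes, had 4 regions inside the gene and 1 upstream. The region at +73.2 kb (chr11:11763105-11763696, 9234 bp from the gene's end) had its highest replicates in MPP4. WT recipients gave 36.6, 46.5 and 42.0 CPM for HSC, 37.9, 30 and 43.6 for MPP2, 88.2 and 47.0 for MPP3, and 82.6, 79.1 and 47.2 for MPP4. In IκB– recipients the values were 27.1, 70.7 and 39.7 CPM for HSC, 46.8, 58.0 and 42.3 for MPP2, 63.5, 27.8 and 85.8 for MPP3, and 110.4, 60.2 and 125 for MPP4. MPP4 ran from 47.2 to 125 CPM with a median of 80.9 and the other subsets from 27.1 to 88.2 with a median of 43.6, so that 2 of 6 MPP4 replicates lay above every other replicate and 12 of 17 other replicates lay below the lowest MPP4 value. The difference in MPP4 was 0.82 ± 0.22 (log2, SE; mean 84.1 ± 29.4 CPM, SD, n = 6, against 49.0 ± 18.4, n = 17), with an adjusted p of 0.0588. This value passed the threshold with limma-voom (adjusted p 0.0388), with the 24 libraries kept apart (0.0442), with the share of counts near gene ends as a covariate (0.0393), and without WT MPP3 replicate 1 (0.0307), WT MPP4 replicate 3 (0.0414), IκB– HSC replicate 2 (0.0359) or 3 (0.0492), IκB– MPP3 replicate 3 (0.0424) or IκB– MPP4 replicate 2 (0.0370). Without 1 replicate the adjusted p ran from 0.0307 to 0.267. Fits with a replicate block also called this difference and are given with the dependence on processing at the end.

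The joint test of any difference between the 4 subsets called Ikzf1 +73.2 kb (adjusted p 0.0253), as did MPP4 against MPP2 (1.03 ± 0.27, adjusted p 0.0201, edgeR). The region held 4 to 67 counts per replicate. The joint call was lost without WT MPP2 replicate 2 (adjusted p 0.0616), WT MPP4 replicate 1 (0.0557) or 2 (0.0943), IκB– MPP2 replicate 1 (0.0514), or IκB– MPP4 replicate 1 (0.0537) or 3 (0.0800), and with limma-voom (0.129). The call against MPP2 was lost without WT MPP2 replicate 1 (0.0533) or 2 (0.0717), WT MPP4 replicate 2 (0.0802), IκB– MPP2 replicate 1 (0.0578) or 3 (0.0501), or IκB– MPP4 replicate 3 (0.0901).

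At the Ikzf1 start, the -0.2 kb region (chr11:11685508-11685966), which covers the CG-rich promoter printed above, held 24.4, 31.0 and 37.3 CPM for HSC, 35.8, 18 and 49.1 for MPP2, 43.1 and 22.7 for MPP3, and 68.9, 10.3 and 61.4 for MPP4 of WT recipients. Its values in IκB– recipients were 40.7, 53.0 and 52.9 CPM for HSC, 45.4, 87.1 and 47.6 for MPP2, 64.4, 48.7 and 34.9 for MPP3, and 43.1, 105 and 30.5 for MPP4. Among MPP4 replicates it ranged from 10.3 CPM in WT replicate 2, which rests on 3 counts, to 105 CPM in IκB– replicate 2, and this range covered that of the other subsets (18.0 to 87.1 CPM). The fitted difference in MPP4 was 0.19 ± 0.29 (adjusted p 0.955). Between recipients the estimate was 0.58 ± 0.25 (adjusted p 0.252), and in HSC the 3 IκB– replicates lay above the 3 WT replicates. The other Ikzf1 regions, at -28.6, +0.3 and +40.2 kb, ranged from 6.88 to 116 CPM over all replicates, with estimates in MPP4 of -0.28 ± 0.25, 0.12 ± 0.23 and 0.03 ± 0.38 and none called.

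Bcl11a encodes a zinc finger repressor needed for B lymphopoiesis and known also for silencing fetal globin genes in red cells. Its 5 regions span the whole locus, and the one called for MPP4 against the other subsets lies 26768 bp beyond the gene's end (Bcl11a +119.8 kb, chr11:24200326-24200594). There WT recipients had 24.4, 11.6 and 9.33 CPM for HSC, 6.32, 15.0 and 27.3 for MPP2, 41.3 and 40.9 for MPP3, and 55.1, 24.1 and 33.1 for MPP4. IκB– recipients had 27.1, 35.4 and 13.2 CPM for HSC, 17.9, 14.5 and 13.2 for MPP2, 43.6, 16.2 and 32.2 for MPP3, and 59.2, 52.7 and 79.3 for MPP4. All 3 IκB– MPP4 replicates and 1 WT MPP4 replicate lay above every replicate of the other subsets, whose highest value was 43.6 CPM, and 9 of 17 other replicates lay below the lowest MPP4 value of 24.1 CPM. WT MPP4 overlapped WT HSC and WT MPP2 at its lowest replicate, and 2 of its 3 replicates lay below both WT MPP3 values.

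The MPP4 mean at Bcl11a +119.8 kb was 50.6 ± 19.7 CPM (SD, n = 6) against 22.9 ± 12.1 (n = 17), a log2 difference of 1.15 ± 0.29 (adjusted p 0.0411). The order of the 8 groups ran from IκB– MPP4 (63.7 ± 13.9 CPM, n = 3) through WT MPP3 (41.1 ± 0.26, n = 2), WT MPP4 (37.4 ± 16.0), IκB– MPP3 (30.7 ± 13.7), IκB– HSC (25.2 ± 11.2), WT MPP2 (16.2 ± 10.5) and IκB– MPP2 (15.2 ± 2.42) to WT HSC (15.1 ± 8.10, n = 3 each). IκB– MPP4 did not overlap WT MPP3, the next in this order, whereas the other neighbours overlapped. Against single subsets, MPP4 was higher than MPP2 by 1.67 ± 0.37 (adjusted p 0.00561), while the estimates against HSC (1.38 ± 0.40, adjusted p 0.0735) and MPP3 (0.39 ± 0.31, adjusted p 0.999) were not called. MPP3 was also higher than MPP2, by 1.29 ± 0.35 (adjusted p 0.0138). Against the other subsets together, edgeR called MPP2 lower (-1.09). This call was lost in 12 of 23 fits without 1 replicate, with DESeq2 (adjusted p 0.0701) and with at least 30 CPM (0.0595).

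The call for MPP4 at Bcl11a +119.8 kb rests on few counts, 2 to 46 per replicate. The estimate stayed between 0.99 and 1.29 without 1 replicate and between 1.11 and 1.17 over 11 other settings, but the call was lost in 12 of 23 fits that each left out 1 replicate: the adjusted p was 0.247 without WT MPP4 replicate 1, 0.0582 without replicate 2, 0.0736 without replicate 3, 0.128 without IκB– MPP4 replicate 1 and 0.179 without replicate 3. Without WT HSC replicate 2 or 3 it was 0.0691 or 0.0647, without WT MPP2 replicate 1 or 2 it was 0.0585 or 0.0578, without WT MPP3 replicate 1 or replicates 2 and 3 it was 0.0501 or 0.0622, and without IκB– MPP2 replicate 3 it was 0.0577. With a filter of at least 30 CPM it was 0.0589. The joint test between subsets (adjusted p 0.00341) and the difference from MPP2 held in all 23 such fits, and the difference between MPP3 and MPP2 was lost without WT MPP2 replicate 1 (0.0945) or IκB– MPP3 replicate 1 (0.0785).

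**Figure D2:**
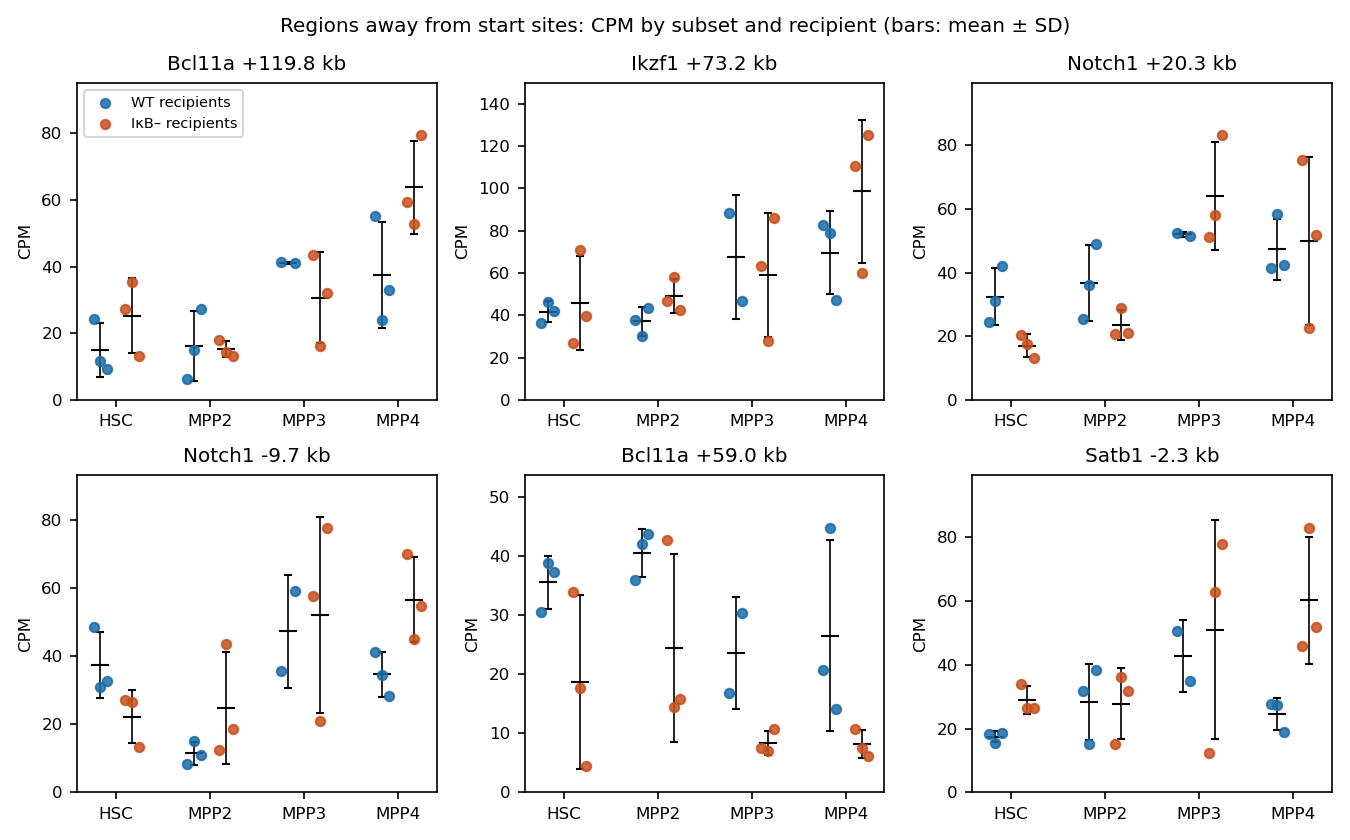
CPM of 6 member regions away from start sites, by subset on the horizontal axis, with WT recipients in blue and IκB– recipients in orange; each point is a replicate and the bars are mean ± SD (n = 3, or 2 for WT MPP3). At Bcl11a +119.8 kb the 3 IκB– MPP4 replicates sit between 52.7 and 79.3 CPM, and at Bcl11a +59.0 kb the IκB– MPP3 and MPP4 replicates sit between 6.10 and 10.8 CPM.

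The Bcl11a region at -4.3 kb (chr11:24076245-24076505, 59 bp outside the annotated gene) is the nearest to a gene end. WT recipients showed 42.6, 42.6 and 32.6 CPM for HSC, 37.9, 42.0 and 65.5 for MPP2, 45 and 42.4 for MPP3, and 34.4, 31.0 and 28.3 for MPP4 at that region. The IκB– values were 33.9, 61.9 and 22.0 CPM for HSC, 42.7, 58.0 and 29.1 for MPP2, 39.8, 60.3 and 29.5 for MPP3, and 24.2, 30.1 and 48.8 for MPP4. MPP4 replicates (24.2 to 48.8 CPM) overlapped the others (22.0 to 65.5 CPM), with 1 of 6 above the median of the other subsets, and the estimate was -0.33 ± 0.26 (adjusted p 0.833). The log2 ratio of the +119.8 kb to the -4.3 kb region within a library, with 0.5 counts added to each, was 0.53 ± 0.54 in MPP4 (SD, n = 6) and -0.97 ± 0.76 in the other subsets (n = 17), a difference of 1.5 (two-sided exact permutation test within recipient type, 36300 arrangements, p 0.000165, Benjamini-Hochberg adjusted p 0.000331 over 2 ratios). The same ratio for Ikzf1, +73.2 kb to -0.2 kb, differed by 0.68 (exact permutation p 0.107). Both ratios were chosen after the values of these regions had been seen, so they describe and do not independently support the contrast between regions. The Bcl11a region at +0.4 kb ranged from 13.2 to 65.5 CPM and was not called (0.18 ± 0.27 in MPP4). The one at -31.2 kb, with 8.84 to 32.5 CPM, did not pass the filter on low counts.

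Inside Bcl11a, the region at +59.0 kb (chr11:24139547-24139788) differed between recipients and not, by the test, between MPP4 and the rest. WT recipients had higher levels, with 30.5, 38.8 and 37.3 CPM for HSC, 35.8, 42.0 and 43.6 for MPP2, 16.9 and 30.3 for MPP3, and 20.7, 44.7 and 14.2 for MPP4. In IκB– recipients it fell to 33.9, 17.7 and 4.41 CPM for HSC, 42.7, 14.5 and 15.9 for MPP2, 7.58, 6.96 and 10.7 for MPP3, and 10.8, 7.53 and 6.10 for MPP4. No IκB– replicate of MPP3 or MPP4 reached the lowest WT replicate of its subset, whereas HSC and MPP2 overlapped through IκB– replicate 1 of each. Over all subsets 7 of 12 IκB– replicates lay below the lowest WT value of 14.2 CPM and 11 of 12 below the WT median of 35.8 CPM.

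Averaged over the 4 subsets, Bcl11a +59.0 kb was lower in IκB– recipients by a factor of 0.436 (log2 -1.20 ± 0.30, adjusted p 0.0319, edgeR), with a mean of 14.9 ± 11.8 CPM (SD, n = 12) against 32.2 ± 10.8 in WT (n = 11). It was the 1 member region called of 16 in this comparison, where 1.73% of all regions were called (1.13% lower in IκB–). Single subsets gave -1.72 ± 0.69 in MPP4, -1.51 ± 0.58 in MPP3, -1.07 ± 0.66 in HSC and -0.49 ± 0.48 in MPP2, none called. Counts per replicate were 1 to 31. The mean effect was lost without WT HSC replicate 2 (adjusted p 0.0649), WT MPP2 replicate 2 (0.0668), WT MPP3 replicates 2 and 3 (0.130), WT MPP4 replicate 2 (0.148), IκB– HSC replicate 3 (0.0594), IκB– MPP2 replicate 3 (0.0565) or IκB– MPP4 replicate 3 (0.0783). Between subsets this region was called for MPP3 against MPP2 (-1.24 ± 0.37, adjusted p 0.0299), a call lost without IκB– MPP2 replicate 1 (-0.80, adjusted p 0.412), WT MPP2 replicate 1 (0.0670) or 2 (0.0810), WT MPP3 replicate 1 (0.138) or IκB– MPP3 replicate 1 (0.0799), and with DESeq2 (0.0661) or with the share of counts near gene ends as a covariate (0.0579).

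Notch1 encodes the receptor whose signal commits progenitors to the T lineage, and both of its regions were higher in MPP3 and MPP4 than in MPP2 by estimate. The intragenic region at +20.3 kb (chr2:26483298-26483693) held 24.4, 31.0 and 42.0 CPM for HSC, 25.3, 36.0 and 49.1 for MPP2, 52.5 and 51.5 for MPP3, and 41.3, 58.5 and 42.5 for MPP4 of WT recipients. Its IκB– values were 20.4, 17.7 and 13.2 CPM for HSC, 20.6, 29.0 and 21.1 for MPP2, 51.2, 58.0 and 83.1 for MPP3, and 75.4, 22.6 and 51.9 for MPP4. All 5 MPP3 replicates (51.2 to 83.1 CPM) lay above all MPP2 replicates (up to 49.1) and all HSC replicates (up to 42.0), while MPP4 spread from 22.6 CPM, a value of 3 counts, to 75.4 CPM.

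At Notch1 +20.3 kb the joint test between subsets gave an adjusted p of 0.00425, and MPP3 exceeded MPP2 by 1.04 ± 0.27 (adjusted p 0.00956) and HSC by 1.27 ± 0.32 (adjusted p 0.0197). MPP4 against the other subsets gave 0.64 ± 0.24 (mean 48.7 ± 17.9 CPM, SD, n = 6, against 36.8 ± 18.6, n = 17; adjusted p 0.285). The joint call was lost with limma-voom (0.0645) and held without any single replicate. The difference from MPP2 was lost without WT MPP2 replicate 1 (0.0528). That from HSC was lost without WT HSC replicate 2 (0.0538), WT MPP3 replicate 1 (0.0563) or WT MPP3 replicates 2 and 3 (0.0566), and with DESeq2 (0.0507) or limma-voom (0.0937). MPP3 against the other subsets together was also called by edgeR (0.82). This call was lost in 3 of 23 fits without 1 replicate and with DESeq2 (adjusted p 0.0679).

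Upstream of Notch1, the -9.7 kb region (chr2:26513289-26513675) was lowest in MPP2 in WT recipients, and in IκB– recipients HSC (22.3 ± 7.86 CPM, SD, n = 3) and MPP2 (24.8 ± 16.5, n = 3) were the lowest. There the WT libraries held 48.7, 31.0 and 32.6 CPM for HSC, 8.43, 15.0 and 10.9 for MPP2, 35.6 and 59.1 for MPP3, and 41.3, 34.4 and 28.3 for MPP4. The IκB– libraries held 27.1, 26.5 and 13.2 CPM for HSC, 12.4, 43.5 and 18.5 for MPP2, 57.8, 20.9 and 77.8 for MPP3, and 70.0, 45.2 and 54.9 for MPP4. In WT recipients the 3 MPP2 replicates lay below every other replicate, and in IκB– recipients MPP2 (12.4 to 43.5 CPM) overlapped HSC and MPP3 and lay below the lowest MPP4 value of 45.2 CPM. All 6 MPP4 replicates lay above the median of the other subsets (27.1 CPM).

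The Notch1 -9.7 kb region had the smallest adjusted p of the members in the joint test (0.00208). MPP3 exceeded MPP2 by 1.75 ± 0.34 (adjusted p 0.000559), and MPP4 exceeded MPP2 by 1.59 ± 0.37 (adjusted p 0.00928, or 0.0564 without IκB– MPP2 replicate 1). MPP4 against the other 3 subsets together gave 0.71 ± 0.28 (mean 45.7 ± 15.0 CPM, SD, n = 6, against 31.7 ± 19.9, n = 17; adjusted p 0.366). The joint test and the difference between MPP3 and MPP2 passed in all 23 fits without 1 replicate. Against the other subsets together, edgeR called MPP2 lower (-1.41) and MPP3 higher (0.92). Without 1 replicate these calls were lost in 1 and 5 of 23 fits, and that of MPP3 also with DESeq2 (adjusted p 0.0996).

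A region of the myeloid factor gene Cebpa had estimates of the same sign as both Notch1 regions in each subset, with 0.83 for MPP3 and 0.70 for MPP4 against the other subsets, -0.70 for MPP2 and -0.83 for HSC (joint adjusted p 8.53e-05, edgeR). Of the 8 MPP3 and myeloid genes listed, 5 had a region, and Mpo, Elane and Ctsg had none. All 5 tested regions of this list were lower in MPP2 and higher in MPP3 by estimate, and the summed level of the list's 6 regions was 211 to 335 CPM in MPP4 and 173 to 347 CPM in the other subsets. The part of such cells in the Notch1 values was not tested.

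Tcf3 and Foxo1, each with 1 region over its promoter, did not differ by the test between MPP4 and the rest. Tcf3 encodes E2A, the E protein that B cell genes depend on. Its -0.3 kb region (chr10:80433556-80434239) was the widest of the 17 and held 171, 112 and 121 CPM for HSC, 86.4, 105 and 120.0 for MPP2, 113 and 121 for MPP3, and 103, 117 and 198 for MPP4 of WT recipients. IκB– libraries had 109, 88.4 and 203 CPM for HSC, 61.9, 94.3 and 95.1 for MPP2, 58.7, 139 and 123 for MPP3, and 88.9, 113 and 116 for MPP4. The MPP4 range (88.9 to 198 CPM) lay within that of the other subsets (58.7 to 203 CPM), and the estimate was 0.14 ± 0.19 (adjusted p 0.944).

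Foxo1 encodes a forkhead factor that activates Il7r and the recombinase genes in lymphoid cells. The region at its start (chr3:52268244-52268527, centre at 0.0 kb) held 30.5, 27.1 and 37.3 CPM for HSC, 29.5, 33.0 and 38.2 for MPP2, 39.4 and 31.8 for MPP3, and 27.5, 17.2 and 14.2 for MPP4 of WT recipients. In the IκB– libraries it held 27.1, 26.5 and 35.2 CPM for HSC, 31.7, 29.0 and 23.8 for MPP2, 29.4, 46.4 and 26.8 for MPP3, and 13.5, 22.6 and 42.7 for MPP4. MPP4 had the lowest replicates, from 13.5 to 42.7 CPM with 1 of 6 above the median of the other subsets (30.5 CPM), and the ranges overlapped. The estimate of -0.51 ± 0.29 (mean 22.9 ± 11.1 CPM, SD, n = 6, against 31.9 ± 5.79, n = 17) was not called (adjusted p 0.670).

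**Figure D3:**
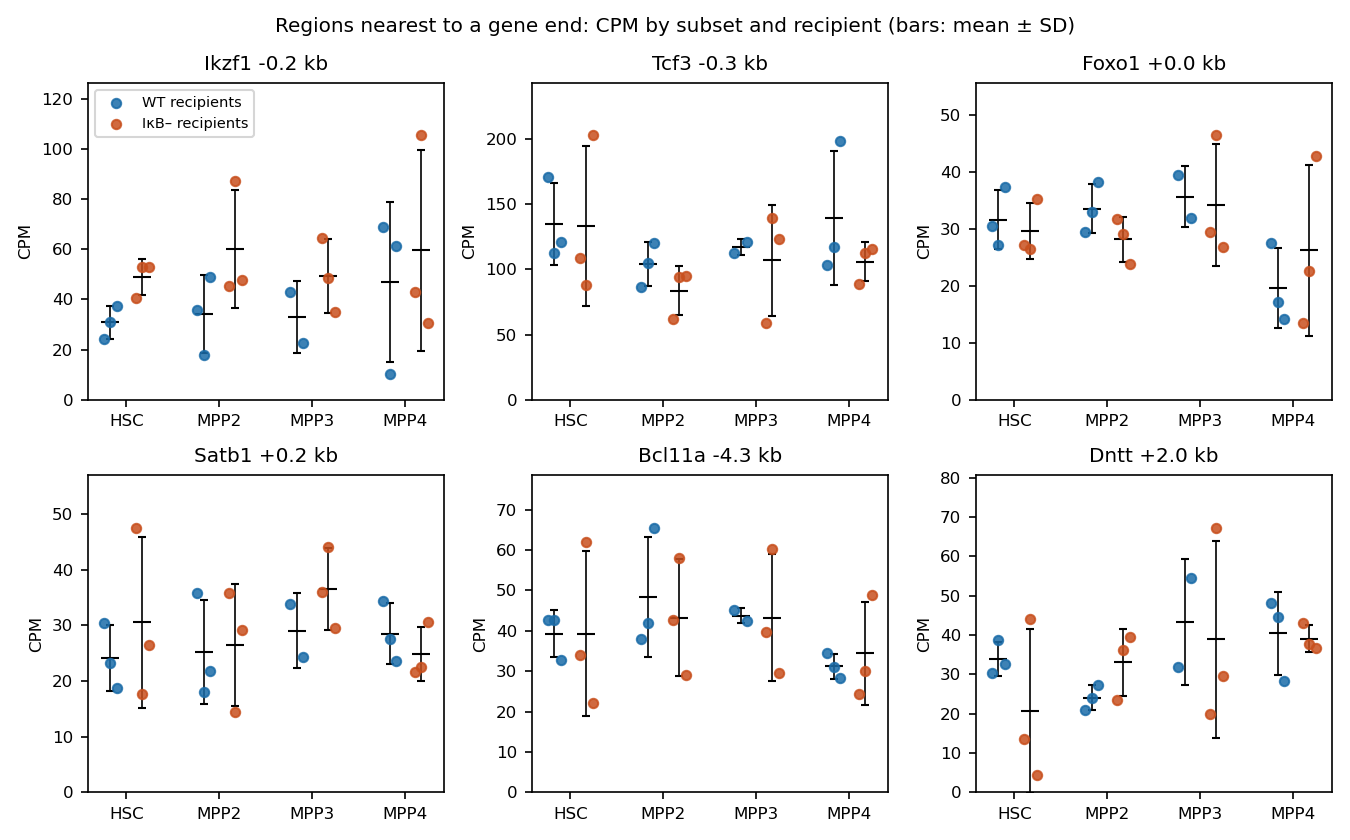
CPM of the member region nearest to a gene end for Ikzf1, Tcf3, Foxo1, Satb1, Bcl11a and Dntt, by subset, with WT recipients in blue and IκB– recipients in orange; points are replicates and bars are mean ± SD (n = 3, or 2 for WT MPP3). At each of these regions the MPP4 replicates overlap those of the other subsets, as for Tcf3 with 88.9 to 198 CPM in MPP4 and 58.7 to 203 CPM elsewhere.

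Satb1, the chromatin organizer, had 1 region 2.3 kb upstream of one of its 5 annotated start sites and 1 at its outermost start. At -2.3 kb (chr17:51814354-51814679) WT libraries had 18.3, 15.5 and 18.7 CPM for HSC, 31.6, 15.0 and 38.2 for MPP2, 50.7 and 34.8 for MPP3, and 27.5, 27.5 and 18.9 for MPP4. IκB– libraries had 33.9, 26.5 and 26.4 CPM for HSC, 15.1, 36.3 and 31.7 for MPP2, 12.3, 62.6 and 77.8 for MPP3, and 45.8, 82.8 and 51.9 for MPP4. MPP4 differed by recipient in these values, with 45.8 to 82.8 CPM in IκB– and 18.9 to 27.5 CPM in WT, and no overlap. The fitted recipient difference in MPP4 was 1.18 ± 0.55 (adjusted p 0.677), its excess over the recipient difference in the other subsets was 0.96 ± 0.65 (adjusted p 1.0), and MPP4 against the other subsets gave 0.34 ± 0.33 (adjusted p 0.893).

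The Satb1 region at +0.2 kb (chr17:51832968-51833185) was flatter. WT libraries gave 30.5, 23.3 and 18.7 CPM for HSC, 35.8, 18 and 21.8 for MPP2, 33.8 and 24.2 for MPP3, and 34.4, 27.5 and 23.6 for MPP4. IκB– libraries gave 47.5, 17.7 and 26.4 CPM for HSC, 35.8, 14.5 and 29.1 for MPP2, 36.0, 44.1 and 29.5 for MPP3, and 21.5, 22.6 and 30.5 for MPP4. MPP4 (21.5 to 34.4 CPM) lay inside the range of the other subsets (14.5 to 47.5 CPM), with an estimate of -0.13 ± 0.28 (adjusted p 0.979).

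Dntt, whose enzyme is a mark of early lymphoid progenitors, had 1 region 1817 bp inside the gene (chr19:41031092-41031369, +2.0 kb) and none over its CG-poor promoter. The WT values were 30.5, 38.8 and 32.6 CPM for HSC, 21.1, 24 and 27.3 for MPP2, 31.9 and 54.5 for MPP3, and 48.2, 44.7 and 28.3 for MPP4. The IκB– values at Dntt were 13.6, 44.2 and 4.41 CPM for HSC, 23.4, 36.3 and 39.6 for MPP2, 19.9, 67.3 and 29.5 for MPP3, and 43.1, 37.6 and 36.6 for MPP4. In MPP4, 5 of 6 replicates lay above the median of the other subsets (30.5 CPM), but the ranges overlapped (28.3 to 48.2 against 4.41 to 67.3 CPM), and the lowest value, in IκB– HSC replicate 3, was 1 count. The difference was 0.42 ± 0.29 (mean 39.8 ± 7.10 CPM, SD, n = 6, against 31.7 ± 14.9, n = 17; adjusted p 0.776).

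Across the members, the regions that differed between subsets lay away from gene starts and ends. The joint test called 4 of 16 regions, Ikzf1 +73.2 kb, both Notch1 regions and Bcl11a +119.8 kb, where it called 7.20% of all regions. All 4 were among the 9 regions farther than 1 kb from a start site or gene end, and 0 of the 7 nearer ones were called by edgeR, with adjusted p of 0.330 to 0.970. All regions of the table, split by gene ends only, had the same order, with 1.63% of 7442 called within 1 kb and 14.3% of 5883 farther away. This order was thus not particular to the lymphoid genes. By that split Ikzf1 +0.3 kb (1098 bp from a gene end) and Bcl11a +0.4 kb (4444 bp) would count as farther away. Set against the other subsets together, MPP3 had 2 member regions called (2.69% of all regions), MPP2 had 2 (4.71%) and HSC had 0 (0.420%). In pairs of subsets, MPP4 against MPP2 called 3 member regions (3.37% of all regions), MPP3 against MPP2 called 4 (8.12%) and MPP3 against HSC called 1 (2.58%). MPP4 against HSC called 0 members by edgeR, and 1.22% of all regions, with 3 members and 12.0% of all regions at an unadjusted p under 0.05. MPP4 against MPP3 called 0 members with 0 at an unadjusted p under 0.05, and 0% of all regions, of which 4.04% had an unadjusted p under 0.05.

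**Figure D4:**
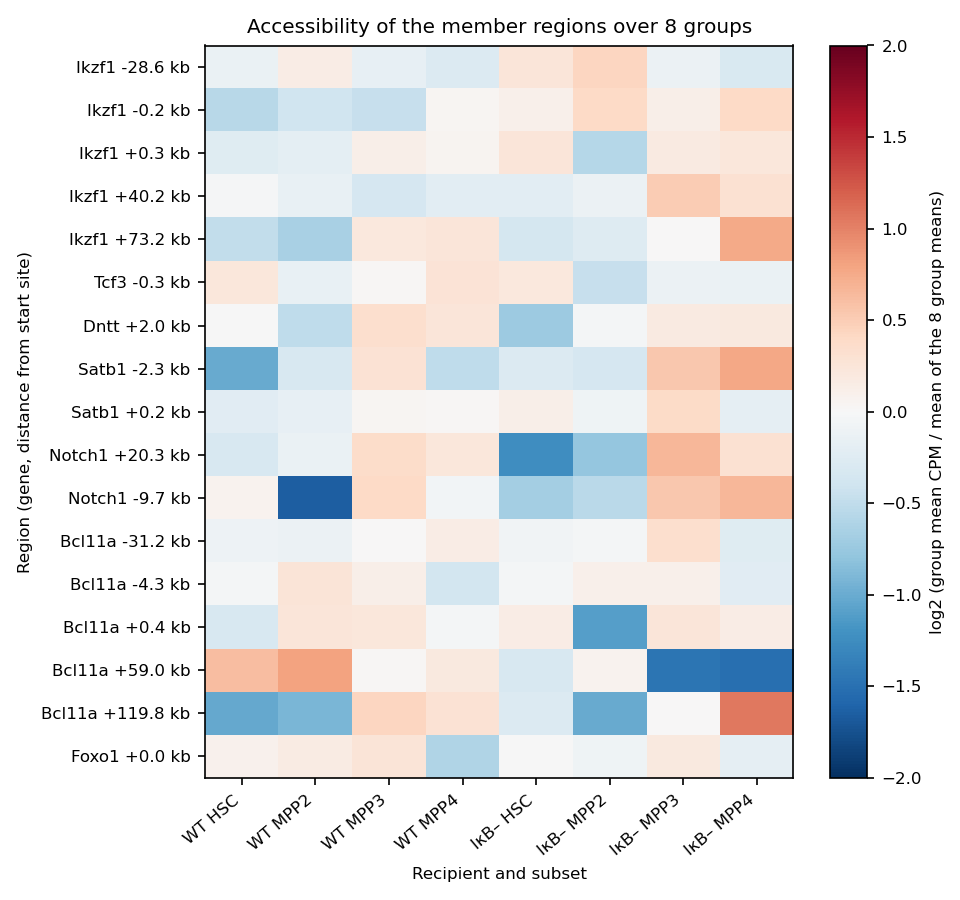
Heat map of the 17 member regions (rows) in the 8 groups (columns), coloured by the log2 ratio of a group's mean CPM to the mean of the 8 group means, from blue (lower) to red (higher). Bcl11a +119.8 kb and Ikzf1 +73.2 kb are reddest in IκB– MPP4, and Bcl11a +59.0 kb is bluest in IκB– MPP3 and MPP4.

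Over the 8 group means of log2 CPM, Bcl11a +119.8 kb and Ikzf1 +73.2 kb followed each other with Pearson r = 0.93, and the other pairs among the 4 called regions gave 0.53 to 0.77. These values describe 8 points that share libraries and depth, and the regions were picked for differing between subsets. Outside the members, the 3 regions whose group means were most like those of Bcl11a +119.8 kb, among 10648 searched, had r of 0.98, 0.97 and 0.97. They were chr2:52955116-52955450 inside Fmnl2, chr7:38189376-38189838 inside 1600014C10Rik and chr2:122652295-122652702 outside a gene, nearest to AA467197.

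Per length, the members were not among the most accessible regions. The mean over 23 replicates was highest at Ikzf1 +0.3 kb with 182 CPM per kb (74.0 to 305 over replicates), followed by Tcf3 -0.3 kb with 169 (85.9 to 296) and Bcl11a -4.3 kb with 154 (84.4 to 251). It was lowest at Ikzf1 +40.2 kb with 89.1 (19.5 to 244). These levels exceeded 73.8%, 67.7%, 59.2% and 9.59% of all regions, respectively. The replicate ranges of these regions overlapped.

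Within each recipient type, the MPP4 difference at Bcl11a +119.8 kb was called in IκB– recipients (1.5 ± 0.36, adjusted p 0.0259, edgeR), where 0.811% of all regions were called and it was the 1 member of 16. In WT recipients the estimate was 0.79 ± 0.44 (adjusted p 0.999), and 0% of all regions were called there by edgeR, with 3.46% at an unadjusted p under 0.05 and 0 members. The difference between the recipient types was itself not called (0.71 ± 0.57, adjusted p 1.0). That test called 0% of all regions with edgeR, DESeq2 and limma-voom, and 400 of 13325 regions and 0 members had an unadjusted p under 0.05 with edgeR. The call in IκB– recipients was lost without IκB– MPP2 replicate 3 (0.0523), IκB– MPP4 replicate 1 (0.287) or IκB– MPP4 replicate 3 (0.362), and with DESeq2 (0.0572).

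Beyond Bcl11a +59.0 kb, the recipient type changed no member region by the test. Averaged over subsets, 10 of 16 estimates were higher and 6 lower in IκB– recipients, with a median of 0.06 against -0.00213 over all regions, and 2 members and 14.3% of all regions had an unadjusted p under 0.05. Within single subsets edgeR called 0 member regions, and among all regions 0.0450% in MPP4, 0.210% in MPP3 and 0% in HSC and MPP2. At an unadjusted p under 0.05 there were 2 members in MPP4 (7.07% of all regions), 1 in MPP3 (9.49%), 1 in MPP2 (3.65%) and 0 in HSC (6.23%).

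Summing the counts of all regions of a gene gave 1 value for each of the 7 member genes with a region. MPP4 against the other subsets called 0 of these 7 with edgeR (0.213% of 10326 genes were called), with 1, Notch1, at an unadjusted p under 0.05 (6.13% of genes). The estimates were 0.65 ± 0.19 for Notch1, 0.43 ± 0.29 for Dntt, 0.23 ± 0.13 for Ikzf1, 0.15 ± 0.22 for Satb1, 0.14 ± 0.18 for Tcf3, 0.12 ± 0.16 for Bcl11a and -0.51 ± 0.28 for Foxo1. The sum over Bcl11a thus did not show the difference of its +119.8 kb region. Notch1 was the 1 member called in the joint test between subsets (adjusted p 0.000421, where 2.58% of genes were called), a call that held without any single replicate. Its sum was higher in MPP3 than in MPP2 by 1.28 ± 0.23 (adjusted p 0.000430, where 3.79% of genes were called), which held without any single replicate, and than in HSC by 1.09 ± 0.26 (adjusted p 0.0235, where 0.843% were called). The latter was lost without WT HSC replicate 1 (0.0538) or 2 (0.0826), WT MPP3 replicates 2 and 3 (0.159), IκB– HSC replicate 3 (0.0529) or IκB– MPP3 replicate 3 (0.0820), and with limma-voom (0.0520). The Notch1 sum was also higher in MPP4 than in MPP2, by 1.14 ± 0.24 (adjusted p 0.00962, where 1.05% of genes were called). The difference between MPP4 and MPP2 was lost without WT MPP2 replicate 1 (0.0665), WT MPP4 replicate 2 (0.0510), IκB– MPP2 replicate 1 (0.0671) or IκB– MPP4 replicate 1 (0.0657), and when only regions in the gene body or within 1 kb of it were summed (0.135). Against the other subsets together, edgeR called the Notch1 sum higher in MPP3 (0.84 ± 0.18, adjusted p 0.0106) and lower in MPP2 (-0.87 ± 0.21, adjusted p 0.0187). In these contrasts 0.988% and 1.80% of genes were called. Both calls were lost with the narrower sums (0.0603 and 0.274), and in 2 and 3 of 23 fits without 1 replicate.

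Among 37 other genes of the lymphoid pathways, 20 had a region, with 36 regions in all and 33 tested. MPP4 called 1 of them higher and 0 lower with edgeR, where 0.653% of all regions were called higher and 0.0976% lower. Of the 33 estimates 22 were higher, with a median of 0.08, against 49.96% of all regions. The called region lies in Flt3 (chr5:147366418-147366731; 61.1 ± 16.2 CPM in MPP4, SD, n = 6, against 33.0 ± 9.30, n = 17; 0.89 ± 0.23, adjusted p 0.0433), and Flt3 also defined the gate. In 14 of 23 fits without 1 replicate the call was lost, with adjusted p of 0.0182 to 0.230 over the 23 fits (0.160 without WT MPP4 replicate 1 and 0.0566 without IκB– HSC replicate 3). The libraries whose removal ended it were all WT HSC and WT MPP4 replicates, WT MPP2 replicates 1 and 2, WT MPP3 replicate 1, IκB– HSC replicate 3, IκB– MPP2 replicate 3, IκB– MPP3 replicate 2 and IκB– MPP4 replicates 1 and 3. It was also lost with DESeq2 (0.0656), a mean of at least 30 CPM (0.0582), total counts without TMM (0.0582) or the share of counts near gene ends as a covariate (0.0534). The next-smallest p-values belonged to 2 further Flt3 regions (1.28 ± 0.40, adjusted p 0.129, and 0.47 ± 0.22, adjusted p 0.490) and to regions of the E protein inhibitors Id3 (-0.75 ± 0.31, adjusted p 0.414) and Id1 (0.50 ± 0.22, adjusted p 0.441). The joint test between subsets called 2 of the 33 (7.20% of all regions), at Flt3 (adjusted p 0.0437, lost in 15 of 23 fits without 1 replicate and with DESeq2, limma-voom, at least 30 CPM or the gene-end covariate, at 0.0551 to 0.139) and Id1 (0.00388, lost in 0 of 23), and the mean recipient effect called 0, in either direction (1.73% of all regions). Of 9 early B genes listed 3 had a region (Rag2, Igll1 and Pax5), and of 4 early T genes 2 had one (Gata3 and Lef1), with 0 of these 5 regions called for MPP4 by edgeR (0.750% of all regions) and 0 at an unadjusted p under 0.05 (9.10% of all regions). Rag1, Cd79a, Vpreb1, Tcf7 and Bcl11b had no region.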

How the data were processed

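Chromatin accessibility was measured by ATAC-seq in 24 libraries of 8 groups. The values are raw counts per region for 13910 regions, as deposited by the authors. The submitters' processing notes name Bowtie2, SAMtools, Picard, MACS2 2.1.0, deepTools and the build mm10, without their order or settings, so how duplicates, the transposase offset and peak merging affected the counts is not given in the sources used here. Groups and replicate numbers came from the titles, and columns with KO and LT in their names were read as IκB– recipients and HSC. No sequencing batch is given by the labels.

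Regions were given to genes with the RefSeq gene table of GRCm38.p6, which has gene ends but no exons, so exon, intron and untranslated positions were not analysed here. Distances to start sites and promoter sequences came from RefSeq promoter windows of the same assembly. Distal regions are given by position only, since no genome sequence was used.

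WT MPP3 replicates 2 and 3 were summed (23 replicates). Counts were tested with edgeR 4.0.16 in R 4.3.3: TMM scaling, filterByExpr (13325 regions kept, 16 of the 17 member regions), a robust quasi-likelihood fit of 8 group means with 15 residual degrees of freedom, and 19 contrasts, each with Benjamini-Hochberg adjustment over all regions tested. The subset contrasts reported are MPP4 against the rest, the pairs of subsets and the joint test of 3 differences between subsets. HSC, MPP2 and MPP3 were each also set against the other subsets. These contrasts were averaged over recipient types, and MPP4 against the rest was also tested within each recipient type. Counts were also summed per gene (10326 genes tested). CPM used TMM-scaled library sizes. Alternatives were other scalings, filters, DESeq2 1.42.0, limma-voom (limma 3.58.1), a replicate block, the share of counts near gene ends as a covariate, a narrower gene assignment, and leaving out each replicate. Those for the Flt3, Id1 and Slamf1 regions and for the Notch1 sum in MPP3 were chosen after seeing the data. The members, the other gene lists and the tests were chosen with earlier results of these data known. By the rule for named regions, each gene's region nearest to a gene end, its region with the smallest p for MPP4 and every region called in a contrast are given in full, and at most 5 regions of the other lymphoid genes are named.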

Additional observations from a re-analysis of the deposited data

How the results depend on the processing

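A member region holds a median of 5 to 35 counts per replicate. All counts are regions (or genes) called at an adjusted p under 0.05. For MPP4 against the other subsets, 100 regions were called, against 49 with a mean of at least 30 CPM, 155 with limma-voom, 113 with the 24 libraries kept apart, 293 with a replicate block on these 24, 313 with that block nested in recipient type, and 19 to 167 when 1 replicate was left out (19 without WT MPP4 replicate 1, 21 without IκB– MPP4 replicate 1, 37 without WT MPP4 replicate 2, 50 without IκB– MPP4 replicate 3 and 167 without IκB– HSC replicate 1). Of the member regions, 1 was called, against 0 with at least 30 CPM and 0 to 2 without 1 replicate. There were 2 (Ikzf1 +73.2 kb and Bcl11a +119.8 kb) with limma-voom, 24 libraries kept apart, either block or the gene-end covariate. Leaving out regions beyond the gene body and its 1 kb flanks removed the called region itself, so the 0 called there was fixed by that choice. For any subset difference, 960 regions were called, against 468 with at least 30 CPM, 529 with limma-voom, 1062 with the 24 libraries kept apart, 1941 and 2165 with the 2 blocks on these 24, and 623 to 1472 without 1 replicate. For the mean recipient effect, 231 were called, against 121 with at least 30 CPM, 147 with DESeq2, 281 with the 24 libraries kept apart, 482 with the block on these 24, 386 with the gene-end covariate and 52 to 442 without 1 replicate (52 without WT MPP3 replicates 2 and 3, 70 without IκB– MPP4 replicate 3). For gene sums in MPP4, 22 were called, against 8 with at least 30 CPM, 22 with the 24 libraries kept apart, 67 and 76 with the 2 blocks on these 24, 11 with the narrower assignment and 4 to 32 without 1 replicate (10 without WT MPP3 replicates 2 and 3). The recipient effect in MPP4 minus that in the other subsets called 0 regions in each alternative run.

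The labels do not say whether replicate numbers pair the libraries, and the main fit does not use the numbers. Of 36 pairs with the same recipient and number, 27 correlated above 0.1 in their deviations from the group means (median r 0.13, lowest 0.02). Pairs of the same recipient type with different numbers did so in 1 of 72 cases (median -0.08). Across recipient types, 24 of 48 pairs with the same number did (median 0.10). The MPP4 value of Ikzf1 +73.2 kb (adjusted p 0.0588) was called with either block on 24 libraries (0.00857, or 0.00472 when nested). All 24 libraries correlated best with their own number, a hint from the data and not from the design.

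The sign of 7 uncalled estimates for MPP4 changed. Ikzf1 -0.2 kb was 0.19 and became -0.155 with limma-voom, with -0.0553 to 0.499 without 1 replicate. Ikzf1 +40.2 kb was 0.03 and became -0.0381 with limma-voom and -0.161 with the gene-end covariate, with -0.413 to 0.330 without 1 replicate. The Bcl11a gene sum of 0.12 became -0.181 with the narrower assignment, which leaves out its +119.8 kb region. Without 1 replicate, Ikzf1 +0.3 kb ran from -0.00671 to 0.213, Tcf3 -0.3 kb from -0.0372 to 0.219, the Tcf3 sum from -0.00954 to 0.222 and Bcl11a +0.4 kb from -0.107 to 0.278. Apart from constructions that test fewer regions or samples, the cause was not tested.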
